A study of Brassica napus with 30 samples.

Results

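The 400 gene models at the start of chromosome A02 of oilseed rape (Brassica napus) are described here by their RNA counts in germinating seeds. They are the first 400, in ID order, of the A02 models with at least 0.531 CPM (each count divided by its library's plain total and scaled to a common size) in 3 or more of 30 libraries. The table holds 100919 gene models, 4203 of them on A02, and 2374 of the A02 models met that CPM minimum. The members run from BnaA02G0000300ZS to BnaA02G0063100ZS. Position was read from the IDs, which carry the chromosome and an order along it, so that distances in bases are not used here.

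Oilseed rape is an allotetraploid that carries an A subgenome, related to that of Brassica rapa, and a C subgenome, related to that of Brassica oleracea. A02 and C02 are homoeologous: over much of their length they hold the same ancestral genes in the same order. In this species such chromosomes can pair with each other at meiosis, and lines are known that carry more copies of a segment from one subgenome and fewer of its counterpart. Copies of a gene on A02 and C02 are similar in sequence, and the sources used here do not say how reads matching both were counted. Copy number was not measured in these samples, and its part in any value below was not tested.

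The genotypes JY1621 and JY1605 were sampled, each in 5 conditions with 3 libraries per group. The conditions were dry seeds, seeds 8 h and 36 h into germination at 25 °C, and seeds 8 h and 36 h into germination at 8 °C, a low temperature for this crop. Each RNA sample pooled 100 seeds, so fewer cells of a type and less RNA per cell cannot be told apart. The zeitgeber time was 0 for dry seeds, 8 for seeds at 8 h and 12 for seeds at 36 h, so time of day moves with sampling time. The labels call the libraries biological replicates; where nothing says that seed lots were separate, p-values measure the spread between these libraries. Neither the origin of the genotypes nor any treatment other than temperature is given in the labels used here. Total counts ran from 14250480 to 35172867 per library, apart from 78251632 in replicate 1 of JY1621 at 36 h and 25 °C. Within groups, Pearson correlations of log2(CPM + 1) were 0.988 to 0.995, and no pair of libraries agreed within sampling noise (chi-square per degree of freedom of 2.62 to 7.10). None of the IDs was found among RefSeq's genes (0 matches), so members are given by ID, without names or roles, and neither seed marker genes nor sequences could be looked up.

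The region was chosen because its models were higher in JY1621, so every difference between the genotypes below is a description without a test. Over the 400 members the median log2 ratio of JY1621 to JY1605 was 1.05 in dry seeds, 1.02 at 8 h 25 °C, 0.93 at 36 h 25 °C, 1.01 at 8 h 8 °C and 1.02 at 36 h 8 °C. Over all 57945 gene models tested, the same medians were 0, -0.01, -0.13, 0 and 0. With groups of fewer than 3 counts set to 3, the members' medians were 0.99, 1.00, 0.93, 0.94 and 1.00. The ratio was above 0 in all 5 conditions for 252 members (63%), below 0 in all 5 for 7, and of mixed sign for 141. Among all tested models 13.5% were above 0 in all 5. Library size scaling gave 1.15 in dry seeds and 1.21 at 8 h 8 °C, where the median of all tested models also moved, to 0.10 and 0.19.

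Calls follow one rule throughout: an adjusted p under 0.05 in edgeR's quasi-likelihood test (Benjamini-Hochberg over all 57945 models) and a log2 fold change of 1 or more in size. By that rule 186 members were higher and 10 lower in JY1621 dry seeds, where the shares over all tested models were 10.8% and 9.52% (20.3% together). At 8 h 25 °C 191 were higher and 12 lower (all tested models 12.9% and 11.6%, 24.5% together), and at 36 h 25 °C 186 and 44 (21.1% and 27%, 48.1% together). At 8 °C 174 were higher and 12 lower at 8 h (all tested models 12.1% and 8.89%, 21% together), and 193 and 9 at 36 h (12.1% and 12.8%, 24.9% together). Called higher in each of the 5 conditions were 58 members (3.06% of all tested models), and called lower in each 5 members (3.51%). All 3 JY1621 libraries lay above all 3 JY1605 libraries in each condition for 179 members, as for 5.66% of all tested models. The reverse held for 5 members, against 6.01% of all tested models. These counts restate how the region was chosen.

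Along the chromosome the ratio was not even (plot of the ratio by rank). In 8 consecutive windows of 50 members, the median of the 5-condition mean ratio was 3.98, 0.89, 0.96, 1.17, 0.99, 1.15, 0.92 and 1.03 on the log2 scale. The next windows of 50 A02 models, beyond the 400, had medians of 0.84, 0.32 and 0.06. The end of the region at member 400 is therefore set by the number in the rule. The last 2 members, BnaA02G0063000ZS and BnaA02G0063100ZS, had mean ratios of 0.65 and 0.91, and the next 2 kept models, BnaA02G0063200ZS and BnaA02G0063300ZS, had 0.97 and 0.74. Of the CPM minimum, the members nearest to it inside were BnaA02G0057600ZS, BnaA02G0060900ZS and BnaA02G0059300ZS, with third-highest values of 0.532, 0.550 and 0.560 CPM. The nearest models outside, BnaA02G0055400ZS, BnaA02G0027900ZS and BnaA02G0022200ZS, had 0.523, 0.519 and 0.516 CPM.

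**Figure D1:**
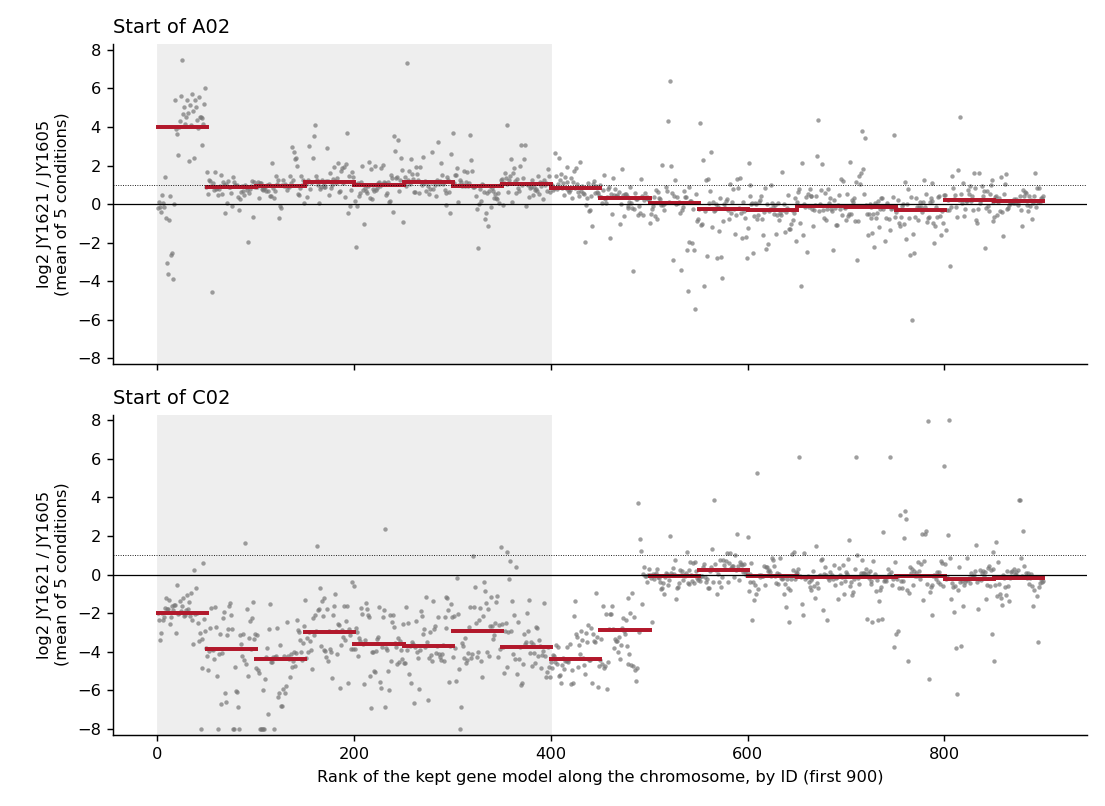
Log2 ratio of JY1621 to JY1605 (mean of 5 conditions, y axis) of the first 900 kept gene models of A02 (top) and C02 (bottom) by rank along the chromosome; points are models, red bars are medians of 50, grey marks the first 400, the dotted line marks 1, and 13 points beyond 8 are drawn at that limit. The first A02 window has a median of 3.98 and the next 7 lie between 0.89 and 1.17, while the first 10 C02 windows lie between -4.38 and -2.01.

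The ranks were divided into 3 stretches after the values had been seen, so these get no test. Ranks 1 to 17 (BnaA02G0000300ZS to BnaA02G0002500ZS) form the tip, ranks 18 to 49 (BnaA02G0002900ZS to BnaA02G0008600ZS, 32 models) an inner stretch, and ranks 50 to 400 (BnaA02G0008900ZS to BnaA02G0063100ZS, 351 models) a long one. Median ratios were -0.18 in the tip, 4.54 in the inner stretch and 0.99 in the long stretch. The steps between them fall between neighbouring kept models. BnaA02G0002500ZS, the last of the tip, had a ratio of 0.02 and BnaA02G0002900ZS, the next kept model, 5.41. BnaA02G0008600ZS, the last of the inner stretch, had 6.04, and BnaA02G0008900ZS, the next kept model, 0.87.

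**Figure D2:**
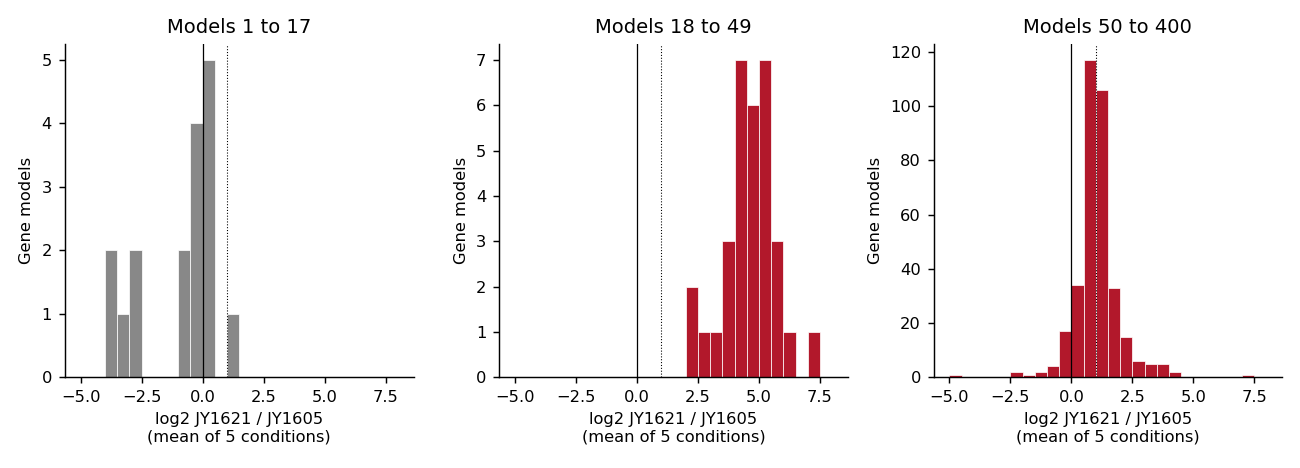
Number of gene models (y axis) by log2 ratio of JY1621 to JY1605, mean of 5 conditions (x axis, bins of 0.5), for ranks 1 to 17, 18 to 49 and 50 to 400; the solid line marks 0 and the dotted line 1. The medians are -0.18, 4.54 and 0.99, and the 3 ranges have different shapes: 5 tip models lie below -1, all 32 inner models lie above 2, and 223 of the 351 others lie from 0.5 to 1.5.

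In the inner stretch, the 32 models had ratios of 2.24 to 7.48 (log2), and 30 of them were above 0 in all 5 conditions. The median was 4.50 in dry seeds, 4.42 at 8 h 25 °C, 3.64 at 36 h 25 °C, 4.90 at 8 h 8 °C and 4.77 at 36 h 8 °C. With groups under 3 counts set to 3 these medians were 3.57, 4.21, 3.59, 4.23 and 4.67, since 4 to 15 of the 32 models had fewer than 3 counts in a JY1605 group. In JY1621 libraries a mean of 22.7 to 27 of the 32 reached 0.531 CPM, by condition, against 4.67 to 11 in JY1605 libraries. That value is also the minimum by which members were admitted. Averaged over the 5 conditions, 25 of the 32 lay under it in JY1605 and 4 in JY1621. The contrast thus restates how the models were chosen.

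BnaA02G0002900ZS, the first model of the inner stretch, had a mean ratio of 5.41. It had 79.0, 76.2 and 80.4 CPM in JY1621 dry seeds, against 2.05, 3.13 and 2.49 CPM in JY1605 dry seeds (CPM per library from here on are scaled by TMM factors). At 36 h 25 °C it had 130.4, 130.7 and 117.7 CPM in JY1621, against 2.23, 2.64 and 2.58 CPM in JY1605. At 36 h 8 °C the values were 68.0, 67.8 and 73.6 CPM in JY1621, against 1, 1.87 and 2.08 CPM in JY1605. No JY1605 library came near a JY1621 library, and the log2 ratio kept within a range of 0.88 over the 5 conditions.

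BnaA02G0005000ZS had a mean ratio of 5.13 and a range of 0.87 over the conditions. At 36 h 8 °C it had 76.2, 75.5 and 76.7 CPM in JY1621, against 1.17, 2.72 and 1.78 CPM in JY1605. BnaA02G0005700ZS was lower in level, with 14.9, 11.1 and 13.5 CPM in JY1621 at 36 h 8 °C, against 0.167, 0.460 and 0.168 CPM in JY1605. In dry seeds the same model had 168 counts summed over the 3 JY1621 libraries and 1 count over the 3 JY1605 libraries, a ratio of 138 with a counting interval of 24.4 to 5484 (95%, exact, counting error only).

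BnaA02G0007500ZS was far higher in JY1621 in every condition, at 17.3-fold (36 h 25 °C) to 33.8-fold (8 h 25 °C) by scaled summed counts. Its level also differed between conditions. It had 233.4, 223.5 and 218.7 CPM in JY1621 dry seeds, against 11.4, 12.7 and 12.9 CPM in JY1605 dry seeds. At 36 h 8 °C it had 17.6, 18.6 and 17.5 CPM in JY1621, against 0.583, 1.52 and 0.436 CPM in JY1605. Both genotypes were thus lower after 36 h in the cold than in dry seeds, by log2 fold changes of -3.65 ± 0.32 (SE) in JY1621 (edgeR adjusted p = 9.15e-10) and -3.89 ± 0.50 in JY1605 (edgeR adjusted p = 4.57e-07).

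BnaA02G0004900ZS was the exception among the highly counted models of this stretch, and it had the lowest ratio in it. In dry seeds its libraries came closest, with 34.0, 35.6 and 35.8 CPM in JY1621, against 30.03, 26.4 and 26.6 CPM in JY1605. At 8 h 25 °C they lay far apart, with 124.5, 135.3 and 137.9 CPM in JY1621, against 11.6, 14.9 and 12.3 CPM in JY1605. The change from dry to 8 h 25 °C seeds was a log2 fold change of 1.92 ± 0.22 in JY1621 (edgeR adjusted p = 8.67e-08) and -1.10 ± 0.24 in JY1605 (edgeR adjusted p = 0.000378).

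The other 31 models of the inner stretch did not stand at one level in JY1605 but varied between libraries of a group. Their summed CPM in a JY1605 library was 0.937% to 7.03% of the JY1621 mean of the same condition. At 8 h 8 °C the 3 JY1605 libraries held 0.937%, 5.08% and 2.69% of that mean, and at 36 h 25 °C 7.03%, 4.97% and 2.77%. In dry seeds the same libraries were closer together, at 4.66%, 4.97% and 4.57%. In some groups many models moved together, most clearly in 2 libraries. In replicate 3 at 36 h 25 °C 23 of the 31 had their lowest value of the 3 libraries, and in replicate 2 at 8 h 8 °C 20 had their highest. Dry seeds did not show this: by library, 5, 4 and 6 models had their lowest value and 8, 4 and 8 their highest. Up to 15 inner models had fewer than 3 counts in a JY1605 group, so many of these ranks rest on few counts. JY1621 libraries lay within 94.3% and 103.7% of their own means. Over the first 400 C02 models, the same JY1605 libraries lay between 97.8% and 102.2% of their means.

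The tip differed from what follows it. Of its 17 models, 11 had a mean ratio below 0 and 5 lay below -1: BnaA02G0001500ZS at -3.03, BnaA02G0001800ZS at -3.62, BnaA02G0002100ZS at -2.64, BnaA02G0002200ZS at -2.54 and BnaA02G0002400ZS at -3.89. For 4 of the 17, all JY1621 libraries lay below all JY1605 libraries in each condition (6.01% of all tested models). For 1 of the 17 the reverse held (5.66% of all tested models). BnaA02G0002400ZS had 1.98, 1.93 and 1.81 CPM in JY1621 dry seeds, against 34.3, 45.0 and 35.2 CPM in JY1605 dry seeds. At 36 h 25 °C it had 1.54, 0.593 and 0.534 CPM in JY1621, against 14.4, 14.2 and 11.5 CPM in JY1605. Its lowest JY1605 library of all, at 5.08 CPM, lay above its highest JY1621 library, at 2.24 CPM.

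BnaA02G0001800ZS was lower in JY1621 as well, but its libraries scattered more. At 8 h 8 °C it had 3.34, 0.393 and 0.790 CPM in JY1621, against 7.82, 7.75 and 17.4 CPM in JY1605. The groups did not overlap within that condition, and within each group 1 library stood well above the other two. Summed over all 17 models, the tip held 140.9 CPM in JY1621 dry seeds and 166.3 CPM in JY1605 dry seeds.

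**Figure D3:**
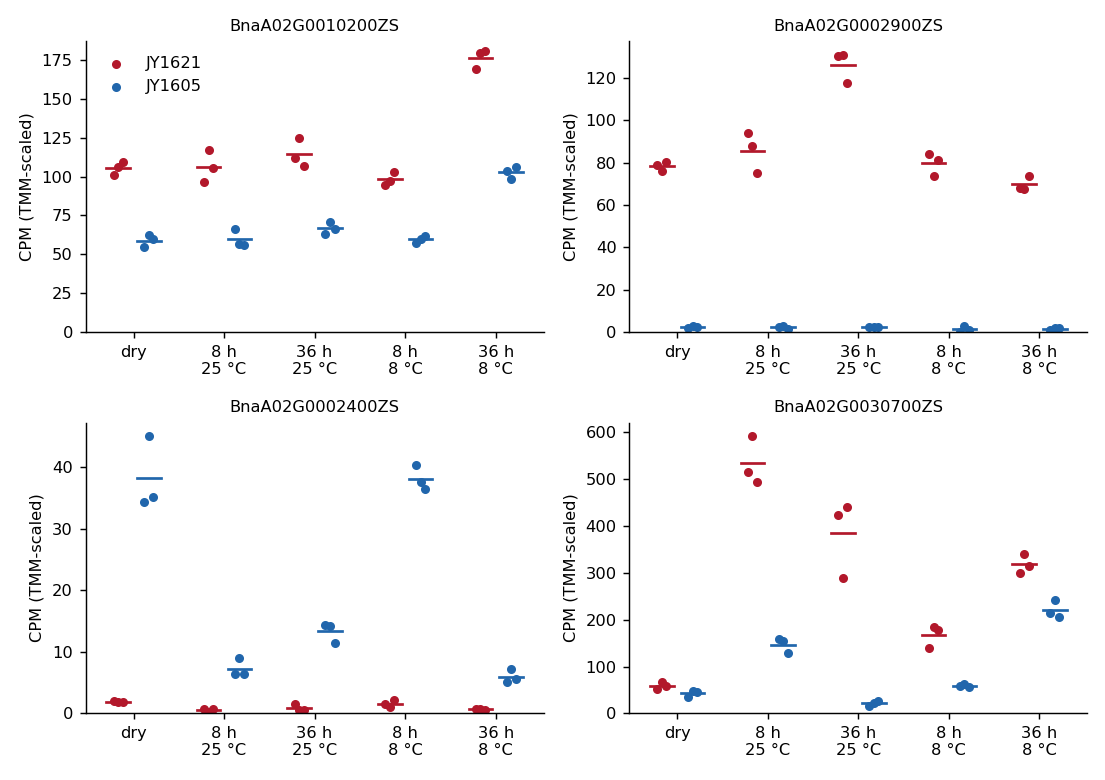
TMM-scaled CPM (y axis, linear from 0) of 4 members in each library by condition (x axis), JY1621 in red left of JY1605 in blue; points are libraries and bars group means of 3. BnaA02G0010200ZS keeps a ratio of 0.79 (log2), BnaA02G0002900ZS one of 5.41, BnaA02G0002400ZS is lower in JY1621, and BnaA02G0030700ZS ranges from 22.1 to 220.6 CPM in JY1605 at 36 h while JY1621 has 385 and 318.6 CPM.

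The long stretch of 351 models centred close to a log2 ratio of 1. Its quartiles were 0.67 and 1.28, and 223 of its models (63.5%) lay between 0.5 and 1.5, compared with 14.1% of the other kept A02 models and 17.2% of all tested models. Among the 164 models with a mean of at least 8 CPM, 82.3% lay in that band, with quartiles of 0.81 and 1.22, and 141 were above 0 in all 5 conditions. Of the 92 models from 2 to 8 CPM 56.5% lay in it, and of the 95 below 2 CPM 37.9%. The spread thus widened as levels fell; how much of it is counting error was not tested. In the long stretch 27 models had a mean ratio below 0, 54 lay from 1.5 to 3 and 13 above 3.

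BnaA02G0010200ZS and BnaA02G0048600ZS had the steadiest ratios of the 90 members with at least 8 CPM in every group, with ranges of 0.13 and 0.21 (log2) over the 5 conditions. BnaA02G0010200ZS had 101, 106 and 109.7 CPM in JY1621 dry seeds, against 54.4, 62.5 and 59.7 CPM in JY1605 dry seeds. At 36 h 8 °C it had 169.4, 179.2 and 180.6 CPM in JY1621, against 103.3, 98.7 and 106.4 CPM in JY1605. Its groups did not overlap within a condition, and both genotypes stood highest at 36 h 8 °C. BnaA02G0048600ZS had 85.9, 98.1 and 96.3 CPM in JY1621 dry seeds, against 47.8, 43.7 and 44.0 CPM in JY1605 dry seeds. At 8 h 25 °C it had 32.4, 30.04 and 31.2 CPM in JY1621, against 16.2, 12.5 and 16.7 CPM in JY1605. Its level differed between the conditions by more than its genotype ratio did, and dry seeds were highest in JY1621. In JY1605 dry seeds and seeds of 8 h at 8 °C were close in level.

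The 4 members with the most counts all lay in the long stretch. BnaA02G0014300ZS had 1955, 2190 and 2084 CPM in JY1621 dry seeds, against 997, 1053 and 1116 CPM in JY1605 dry seeds. After 8 h at 25 °C it had 511, 515 and 496 CPM in JY1621, against 350.1, 367 and 344 CPM in JY1605. At 36 h 25 °C the libraries came closest, with 2245, 2102 and 1834 CPM in JY1621, against 1961, 1726 and 1505 CPM in JY1605, and there the groups overlapped. Its log2 ratio over the 5 conditions averaged 0.69.

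BnaA02G0032400ZS was nearly level between the genotypes in 1 condition. At 8 h 25 °C it had 451, 544 and 512 CPM in JY1621, against 437, 469 and 504 CPM in JY1605, and these groups overlapped. At 36 h 25 °C it had 374, 351 and 374 CPM in JY1621, against 109.5, 118.8 and 106.9 CPM in JY1605, the widest gap of the 5. BnaA02G0048700ZS had its smallest ratio at 36 h 25 °C, where that of BnaA02G0032400ZS was largest. It had 152.7, 132.6 and 138.1 CPM in JY1621 dry seeds, against 49.1, 45.9 and 45.4 CPM in JY1605 dry seeds. At 36 h 25 °C it had 437, 446 and 421 CPM in JY1621, against 414, 399.5 and 394 CPM in JY1605, where the groups stood side by side without overlap.

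BnaA02G0041000ZS had the highest smallest-of-5 ratio (the lowest of its 5 condition values) of all 400 members. It had 5.81, 4.54 and 5.05 CPM in JY1621 at 8 h 25 °C and no count in the 3 JY1605 libraries, which is at least 120.2-fold higher against a floor of 3 counts over the group. At 36 h 8 °C it had 664 counts over the JY1621 libraries and 1 over the JY1605 libraries, a ratio of 678 (95% counting interval 121 to 26817). In the other 3 conditions JY1605 had 4 or 5 counts in all.

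BnaA02G0009500ZS, near the start of the long stretch, ran the other way, with a mean ratio of -4.56. At 8 h 25 °C the JY1621 libraries held 2 counts between them, against 5.07, 3.93 and 4.14 CPM in JY1605. At 36 h 8 °C it had 0.126, 0.0582 and 0.0555 CPM in JY1621, against 2.00, 1.98 and 2.21 CPM in JY1605. Every JY1605 library was above every JY1621 library.

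Summed, the 400 members held a larger share of counts in JY1621 in every condition, by a multiple that differed between conditions (plot of shares of counts). They took 0.982% ± 0.0166 of all counts in JY1621 dry seeds and 0.476% ± 0.00402 in JY1605 dry seeds (SD, n = 3 each), a ratio of 2.06 ± 0.0225 (SE). The ratio was 1.90 ± 0.0150 at 8 h 25 °C, 1.72 ± 0.0384 at 36 h 25 °C, 2.02 ± 0.0252 at 8 h 8 °C and 2.13 ± 0.0305 at 36 h 8 °C (SE). With TMM-scaled totals the ratios were 1.92, 1.97, 1.79, 1.76 and 2.07 in the same order. Which condition had the lowest ratio thus depended on the denominator. With plain totals and without the 10 members of highest mean CPM, the ratio at 36 h 25 °C was 1.89. The other kept A02 models held 2.52% in JY1621 and 2.46% in JY1605 dry seeds, and their largest gap was 2.95% in JY1621 against 3.21% in JY1605 at 8 h 25 °C.

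The first 400 kept C02 models, chosen by the same rule, ran in the opposite direction. They held 0.0766% of counts in JY1621 dry seeds and 0.556% in JY1605 dry seeds, and in all 5 conditions the JY1621 share was between 0.129 and 0.148 of the JY1605 share. Added together, the A02 and C02 models took 1.06% in JY1621 and 1.03% in JY1605 dry seeds, 1.43% and 1.53% at 8 h 25 °C, and 1.70% and 1.92% at 36 h 25 °C. At 8 °C the sums were 1.09% in JY1621 and 1.07% in JY1605 at 8 h, and 1.36% and 1.32% at 36 h. The sum of both sets thus had ratios of 0.889 to 1.03, nearer to 1 than either set alone. Both sets were chosen for their genotype difference, models of the 2 chromosomes were not matched with each other, and reads can pass between similar copies, so the sum is a description.

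**Figure D4:**
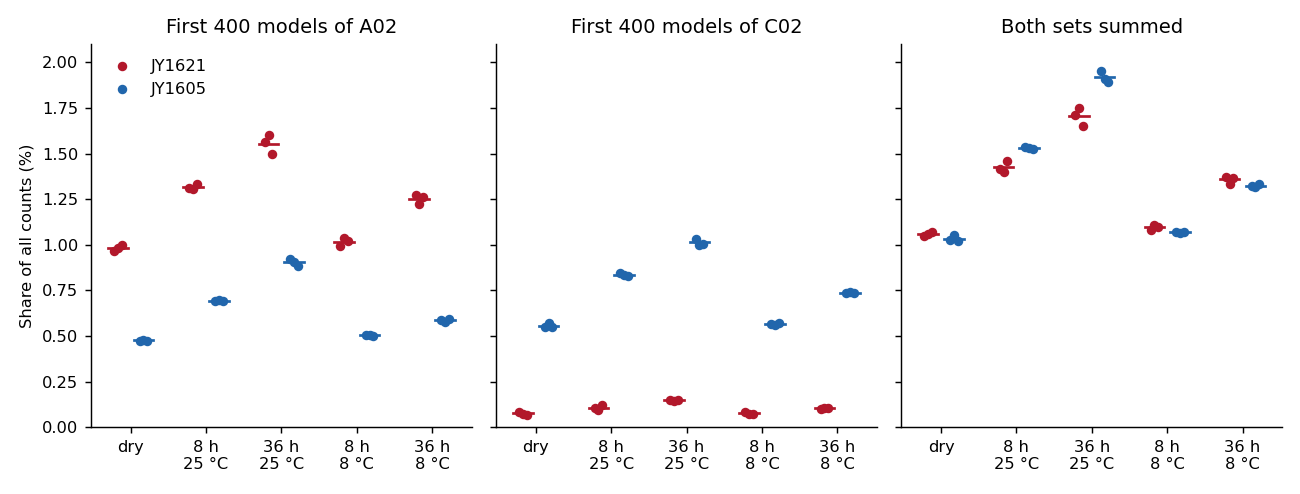
Share of all counts (%, y axis from 0) held by the first 400 kept models of A02, of C02 and by both sets, in each library by condition (x axis), JY1621 in red left of JY1605 in blue; bars are means of 3. JY1621 is higher in every A02 condition (0.982% against 0.476% in dry seeds), lower in every C02 condition (0.0766% against 0.556%), and close to JY1605 in the sum (1.06% against 1.03%).

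Fewer A02 models at this end were without counts. Of the 631 models up to the last member, 400 (63.4%) met the CPM minimum and 57 had no count in any library. Among the 3572 A02 models after it 55.3% met it and 14.1% had no count. In the first 631, 40 models had counts in JY1621 libraries only and 19 in JY1605 libraries only. Of the 3572 A02 models after them the numbers were 131 and 210, and over the whole table they were 4037 and 5521 of 100919.

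Temperature was not used to choose the region, and its comparisons were tested within each genotype. At 8 h, 152 members changed between 8 °C and 25 °C in JY1621 (38%, against 33.3% of all tested models). Of these 79 were higher and 73 lower at 8 °C (all tested models 16.9% and 16.4%). In JY1605 159 changed (39.8%, against 41.3%), 76 higher and 83 lower (all tested models 20% and 21.3%). At 36 h 144 changed in JY1621 (36%, against 34.5%), 54 higher and 90 lower (all tested models 14.3% and 20.1%). In JY1605 232 changed at 36 h (58%, against 61.4%), 82 higher and 150 lower (all tested models 28.7% and 32.7%). Members were thus called about as often as all tested models in each of the 4 comparisons. With library size scaling, which moved the median of all tested models by -0.24 in JY1621 and -0.56 in JY1605 at 8 h, the 8 h splits were 56 higher and 108 lower in JY1621, and 37 and 135 in JY1605.

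Calls shared by the genotypes were counted next. At 8 h 55 members were higher and 53 lower at 8 °C in both (27%, against 22.7% of all tested models), and 1 was called in opposite directions. At 36 h 39 were higher and 74 lower in both (28.3%, against 25.9% of all tested models), and 4 were opposite. At 8 h the shared calls were 71.1% of the members' JY1621 calls and 67.9% of their JY1605 calls, against 68.0% and 54.9% over all tested models. At 36 h they were 78.5% and 48.7%, against 75.3% and 42.2% over all tested models. Across the 400 members, the log2 temperature effects of the genotypes had a Pearson correlation of 0.679 at 8 h and 0.701 at 36 h. Over all tested models the same values were 0.673 and 0.702. The genotypes share no library in these comparisons, but library composition and the scaling are common to all models of a library.

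**Figure D5:**
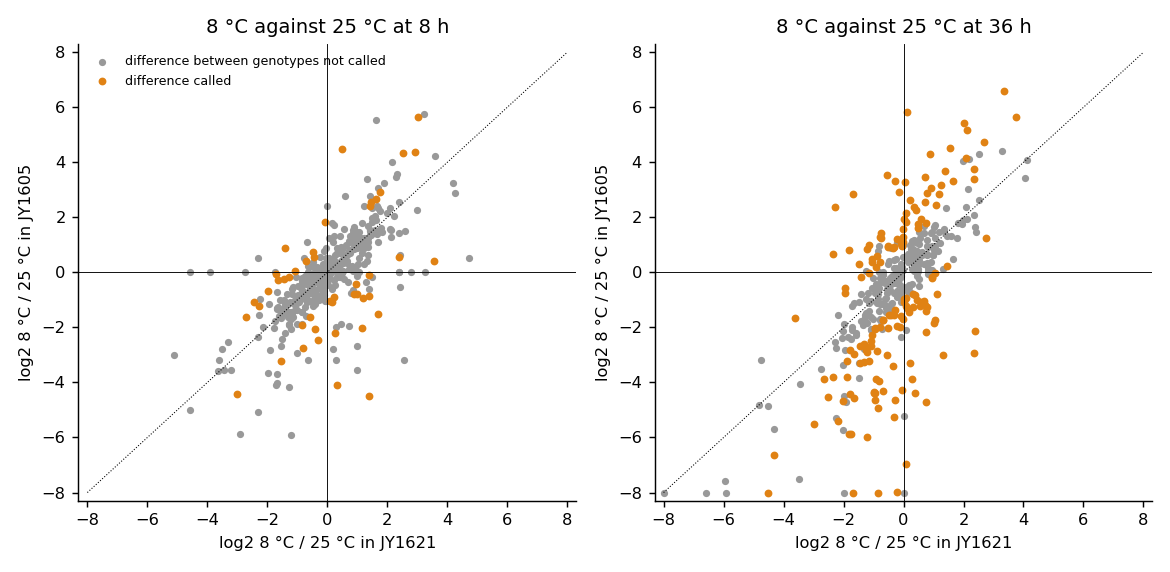
Log2 fold change 8 °C over 25 °C of each of the 400 members in JY1621 (x axis) and JY1605 (y axis) at 8 h (left) and 36 h (right); orange marks members whose effect was called different between genotypes, the dotted line is equality, and 8 points at 36 h are drawn at the limit of 8. At 8 h 45 members are orange and at 36 h 156, with correlations of 0.679 and 0.701.

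At 36 h, 3 members had the largest higher calls shared by both genotypes, among those with at least 8 CPM. BnaA02G0035100ZS had 120.7, 117.0 and 127.5 CPM at 8 °C in JY1621, against 27.1, 21.6 and 22.0 CPM at 25 °C. In JY1605 it had 82.5, 71.6 and 71.6 CPM at 8 °C, against 6.22, 7.30 and 7.67 CPM at 25 °C. The log2 fold change was 2.35 ± 0.10 (SE) in JY1621 (edgeR adjusted p = 5.87e-24) and 3.41 ± 0.11 in JY1605 (edgeR adjusted p = 4.97e-29), and no libraries overlapped between temperatures. In dry seeds it stood at 151.4 ± 9.39 CPM in JY1621 and 92.6 ± 4.93 CPM in JY1605 (SD, n = 3 each), so the 25 °C seeds were the ones furthest from dry seeds.

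BnaA02G0051900ZS rose to 17.1, 17.1 and 15.8 CPM at 8 °C in JY1621, against 3.597, 2.87 and 3.20 CPM at 25 °C. In JY1605 it had 23.0, 23.7 and 22.0 CPM at 8 °C, against 1.72, 1.62 and 1.74 CPM at 25 °C. Its genotype ratio averaged -0.13, outside the band that most of its neighbours kept. BnaA02G0010100ZS had 56.1, 66.0 and 60.1 CPM at 8 °C in JY1621, against 16.5, 10.4 and 13.9 CPM at 25 °C. In JY1605 it had 31.8, 30.7 and 34.9 CPM at 8 °C, against 0.653, 0.862 and 1.20 CPM at 25 °C. The JY1605 fold change was the larger one, at 5.17 ± 0.16 (log2) against 2.12 ± 0.12 in JY1621.

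Lower calls shared by both genotypes at 36 h were ranked by the smaller of the 2 fold changes, among members with at least 8 CPM. BnaA02G0058500ZS showed the largest change by that ranking. It had 1.43, 2.62 and 1.39 CPM at 8 °C in JY1621, against 68.8, 177.7 and 101.5 CPM at 25 °C. In JY1605 it had 0.222, 0.318 and 0.973 CPM at 8 °C, against 76.9, 93.2 and 117.6 CPM at 25 °C. The log2 fold change was -5.95 ± 0.58 in JY1621 (edgeR adjusted p = 9.98e-09) and -7.59 ± 0.69 in JY1605 (edgeR adjusted p = 1.35e-09). Its replicates scattered, and at 8 h 8 °C 1 JY1621 library held 16.3 CPM and the other two 1.29 and 1.57 CPM.

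BnaA02G0017800ZS had 13.3, 10.6 and 11.9 CPM at 8 °C in JY1621, against 70.1, 84.9 and 71.1 CPM at 25 °C. In JY1605 it had 4.47, 3.89 and 5.03 CPM at 8 °C, against 63.7, 63.6 and 71.1 CPM at 25 °C. The fold changes were -2.65 ± 0.10 in JY1621 and -3.89 ± 0.11 in JY1605 (log2). BnaA02G0029200ZS was similar, with 21.9, 17.2 and 19.4 CPM at 8 °C in JY1621, against 114.1, 101.1 and 80.6 CPM at 25 °C. In JY1605 it had 4.45, 4.10 and 5.77 CPM at 8 °C, against 65.3, 75.2 and 61.4 CPM at 25 °C. For both models every 8 °C library lay below every 25 °C library, and the fold change, though not the drop in CPM of BnaA02G0029200ZS, was larger in JY1605.

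At 8 h, the neighbours BnaA02G0009200ZS and BnaA02G0009100ZS (ranks 53 and 52) were higher at 8 °C in both genotypes. BnaA02G0009200ZS had 77.6, 61.3 and 69.1 CPM at 8 °C in JY1621, against 7.16, 4.57 and 5.75 CPM at 25 °C. In JY1605 it had 42.2, 39.9 and 31.5 CPM at 8 °C, against 0.997, 2.91 and 2.09 CPM at 25 °C. Dry seeds held 95.9 ± 2.83 CPM in JY1621 and 46.9 ± 2.29 CPM in JY1605, so the 8 °C libraries were the nearer ones to dry seeds. The change from dry seeds was -0.47 ± 0.17 after 8 h at 8 °C in JY1621 (log2, edgeR adjusted p = 0.0519) and -0.31 ± 0.18 in JY1605 (edgeR adjusted p = 0.291). BnaA02G0009100ZS had 31.9, 31.4 and 30.4 CPM at 8 °C in JY1621, against 6.79, 5.16 and 5.996 CPM at 25 °C. In JY1605 it had 23.7, 27.7 and 23.5 CPM at 8 °C, against 4.68, 4.67 and 3.54 CPM at 25 °C.

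BnaA02G0041500ZS and BnaA02G0012400ZS were the largest lower calls shared at 8 h, among members with at least 8 CPM. BnaA02G0041500ZS had 6.33, 7.27 and 5.79 CPM at 8 °C in JY1621, against 143.6, 162.8 and 157.0 CPM at 25 °C. In JY1605 it had 1.33, 1.04 and 0.841 CPM at 8 °C, against 30.5, 42.1 and 30.4 CPM at 25 °C. The fold changes were -4.58 ± 0.13 in JY1621 (log2, edgeR adjusted p = 7.37e-28) and -5.01 ± 0.18 in JY1605 (edgeR adjusted p = 2.1e-25). By 36 h at 8 °C it stood at 67.7 ± 6.39 CPM in JY1621 and 47.9 ± 3.97 CPM in JY1605. BnaA02G0012400ZS had 1.84, 1.44 and 1.05 CPM at 8 °C in JY1621, against 21.2, 18.3 and 14.7 CPM at 25 °C. In JY1605 it had 0.860, 1.04 and 0.560 CPM at 8 °C, against 9.19, 11.9 and 9.14 CPM at 25 °C. After 8 h in the cold, the change of BnaA02G0041500ZS from dry seeds was 0.27 ± 0.17 in JY1621 (log2, edgeR adjusted p = 0.273) and 1.47 ± 0.43 in JY1605 (edgeR adjusted p = 0.0169), called in JY1605 on 48 counts at 8 °C and 14 in dry seeds. That of BnaA02G0012400ZS was -0.62 ± 0.26 in JY1621 and 0.77 ± 0.43 in JY1605 (log2), neither called. Whether these changes differ between genotypes was not tested.

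The size of the temperature effect could differ between genotypes, and this difference was taken as the log2 effect in JY1621 minus that in JY1605. At 8 h 45 members were called (11.3%, against 12.8% of all tested models), 23 higher and 22 lower (all tested models 6.93% and 5.91%). With library size scaling, which moved the median of all tested models by 0.25, that split was 38 and 7. At 36 h 156 were called (39%, against 40.6%), 92 higher and 64 lower (all tested models 19.8% and 20.8%). Neither share stood apart from that of all tested models. In the inner stretch 1 of 32 models was called at 8 h and 11 at 36 h.

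BnaA02G0057800ZS had the largest difference at 36 h. It had 17.005, 21.3 and 15.4 CPM at 8 °C in JY1621, against 8.91, 11.5 and 11.8 CPM at 25 °C. In JY1605 it had 0.361, 0.601 and 0.503 CPM at 8 °C, against 12.3, 14.7 and 10.9 CPM at 25 °C. The effect was 0.75 ± 0.19 in JY1621 and -4.71 ± 0.28 in JY1605 (log2), a difference of 5.46 ± 0.35 (edgeR adjusted p = 3.88e-15). At 25 °C the genotypes overlapped, and at 8 °C the JY1605 libraries were all below 1 CPM.

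BnaA02G0045700ZS followed with a difference of 4.07 ± 0.46 (log2, edgeR adjusted p = 5.28e-08). It had 3.09, 6.78 and 3.83 CPM at 8 °C in JY1621, against 5.77, 8.80 and 11.2 CPM at 25 °C. In JY1605 it had 0.750, 0.460 and 1.01 CPM at 8 °C, against 25.3, 24.7 and 18.2 CPM at 25 °C. It was one of the members that were lower in JY1621 at 36 h 25 °C and higher at 36 h 8 °C. The JY1621 effect of -0.86 ± 0.29 was not called, but it reached -1.12 without replicate 1 of JY1621 at 36 h 25 °C and -1.30 without replicate 2 of JY1621 at 36 h 8 °C, where it was.

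In the other direction BnaA02G0030700ZS had 299.3, 341 and 316 CPM at 8 °C in JY1621 at 36 h, against 424, 289.6 and 441 CPM at 25 °C. In JY1605 it had 214.9, 241.2 and 205.7 CPM at 8 °C, against 16.6, 23.2 and 26.5 CPM at 25 °C. The JY1621 groups overlapped and the JY1605 groups did not, and the difference between the effects was -3.59 ± 0.23 (log2, edgeR adjusted p = 5.11e-12). BnaA02G0010100ZS had a difference of -3.04 ± 0.21 (edgeR adjusted p = 8.06e-16), and in both of these models the 25 °C seeds of JY1605 were the low group.

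Set against dry seeds, the members' calls stood beside those of all tested models as follows. The comparisons of one genotype share its 3 dry libraries, so their values are only given side by side. JY1621 seeds of 8 h at 25 °C had 94 members higher and 92 lower than dry seeds (all tested models 22.2% and 19.4%, 41.6% together). At 36 h and 25 °C the JY1621 counts were 122 higher and 67 lower (all tested models 26.2% and 20%, 46.2% together). In the cold JY1621 had 16 higher and 0 lower at 8 h (all tested models 6.01% and 0.48%, 6.49% together), and 109 and 92 at 36 h (25.5% and 22.1%, 47.6% together). The 0 lower calls stand beside 134 members with an unadjusted p under 0.05 in either direction in edgeR's test; DESeq2's Wald test also called 16 higher and 0 lower.

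JY1605 seeds of 8 h at 25 °C had 97 members higher and 77 lower than dry seeds (all tested models 24.7% and 20.8%, 45.4% together). At 36 h and 25 °C the JY1605 counts were 147 higher and 76 lower (all tested models 36.6% and 24.8%, 61.4% together). In the cold JY1605 had 6 higher and 3 lower at 8 h (all tested models 2.98% and 0.423%, 3.4% together), and 98 and 95 at 36 h (26.6% and 23.7%, 50.2% together). In both genotypes the seeds of 8 h at 8 °C were the ones with the fewest members called against dry seeds.

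These splits moved with the scaling. With library sizes alone, the median of all tested models moved by 0.49 to 0.66 in the comparisons other than 8 h at 8 °C. JY1621 then had 137 higher and 57 lower at 8 h 25 °C, 162 and 37 at 36 h 25 °C and 153 and 72 at 36 h 8 °C. JY1605 had 152 and 41 at 8 h 25 °C, 200 and 41 at 36 h 25 °C and 151 and 55 at 36 h 8 °C. For the few JY1605 calls at 8 h 8 °C, the split was 10 and 3 with library sizes, 4 and 4 with DESeq2's size factors, 5 and 5 with DESeq2's Wald test, and 4 and 1 in a fit without the other groups.

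As a share of plain total counts, the 400 members were lower at 8 °C than at 25 °C in each of the 4 comparisons. They held 1.02% ± 0.0216 at 8 °C and 1.32% ± 0.0161 at 25 °C in JY1621 at 8 h, and 1.25% ± 0.0243 and 1.55% ± 0.0523 at 36 h (SD, n = 3 each). In JY1605 they held 0.504% ± 0.00203 at 8 °C and 0.694% ± 0.00434 at 25 °C at 8 h, and 0.588% ± 0.00904 and 0.904% ± 0.0172 at 36 h. With plain totals every 8 °C library lay below every 25 °C library, and each exact two-sided permutation test gave p = 0.1, the smallest that 3 against 3 libraries allow (0.1 also after adjustment over the 4 tests). With TMM-scaled library sizes as the denominator, the 8 h difference in JY1605 turned to 0.0433 percentage points higher at 8 °C. With the same denominator the JY1621 libraries overlapped at 8 h, at 1.08% to 1.14% at 8 °C and 1.13% to 1.18% at 25 °C. In group means of plain totals, the other kept A02 models were lower at 8 °C as well. At 8 h they held 2.63% against 2.95% at 25 °C in JY1621, and 2.56% against 3.21% in JY1605. At 36 h they held 2.97% against 3.03% in JY1621, and 3.08% against 3.27% in JY1605. The 10 members with the highest mean CPM fell at 36 h from 0.505% at 25 °C to 0.308% at 8 °C in JY1621. In JY1605 these 10 fell from 0.350% to 0.148%.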

How the data were processed

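RNA from seeds was sequenced in 30 libraries of 2 genotypes and 5 conditions. The values are raw counts per gene model, deposited by the authors as 1 table. The tools named in the submitters' processing notes are HISAT2 2.2.1, featureCounts 2.0.6 and DESeq2 1.42.0. Genome build, strand setting and the treatment of reads with several matches are not stated there. The members and lists were chosen with earlier results of these data known.

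Counts were tested with edgeR 4.0.16 in R 4.3.3 (TMM factors, filterByExpr with a minimum count of 10 and total of 15, robust quasi-likelihood F-test) in 1 fit of 30 libraries with 1 mean per group, and p-values were adjusted over 57945 models. Standard errors are the absolute log2 fold change divided by the root of F. The scripts were tested on simulated data. Per-library CPM are TMM-scaled, while shares use plain totals. A group with no count was set against a floor of 3 counts over the group. As reads are not separate molecules, intervals and floors hold for counting error alone. CPM are not per length, so levels were not ranked between genes.

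The 29 members named are the last 2, the 4 with the most counts, the 4 with the most counts in the window with the highest ratio, and, among members with a mean of at least 2 CPM in the higher genotype, the 3 whose smallest ratio over the conditions was highest and the 3 whose largest ratio was lowest. Also named are the largest calls between temperatures shared by both genotypes (3 in each direction at 36 h, 2 at 8 h, with at least 8 CPM). These were ranked by the smaller of the 2 fold changes. The rest are the 2 largest called differences of that effect at 36 h in each direction, with the same CPM minimum, and the 2 steadiest ratios. A few others, such as tip models below -1 and those at edges, were named after their values were seen. The alternatives were DESeq2 1.42.0 size factors and Wald test, library size scaling, no low-count filter, only the groups compared, a replicate block, and leaving out each library.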

Additional observations from a re-analysis of the deposited data

Results flagged for a closer look

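For 8 named members the effect of 8 °C against 25 °C at 36 h differed between genotypes by the test of that difference (edgeR, JY1621 minus JY1605, log2, called at an absolute value of at least 1). They were named for large temperature effects or large differences, so that such calls among them are not independent of the choice. The difference was above 0 for BnaA02G0057800ZS (5.46), BnaA02G0045700ZS (4.07), BnaA02G0029200ZS (1.48) and BnaA02G0017800ZS (1.23). It was below 0 for BnaA02G0030700ZS (-3.59), BnaA02G0010100ZS (-3.04), BnaA02G0051900ZS (-1.42) and BnaA02G0035100ZS (-1.06). The call of BnaA02G0035100ZS was lost with library size scaling (-0.95) and without replicate 1 of JY1605 at 36 h 25 °C (-0.98), of JY1605 at 36 h 8 °C (-0.99) or of JY1621 at 36 h 25 °C (-0.94). For the 3 members higher and the 2 others lower at 8 °C in both genotypes, the JY1605 effect was the larger one. Over all tested models the median absolute log2 effect at 36 h was likewise larger in JY1605, at 1.44 against 0.75 in JY1621. With 3 libraries per group, single libraries that stand apart from their group could not be tested.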

How the results depend on the processing

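Over 81 results, 1487 alternative values were computed. For values that answer a comparison, 259 were labelled as kept, 16 as moved and 1 as turned. Numbers of called members were labelled by their total, so a changed split into higher and lower still counted as kept. With library size scaling the 8 h split between temperatures went from 79 higher and 73 lower to 56 and 108 in JY1621. In JY1605 it went from 76 and 83 to 37 and 135. For the 8 h difference between genotypes it went from 23 and 22 to 38 and 7. These 3 are among the values labelled as kept. For single named models, 1195 values kept their direction and their side of the threshold or stayed within the spread, and 16 did not.

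The calls between 8 h 8 °C and dry seeds of JY1605 were few: 9 as reported, 14 with no low-count filter, 5 in a fit of only these groups, and 5 to 10 when single libraries were left out (5 without replicate 2 of JY1605 dry seeds). The median log2 ratio of JY1621 to JY1605 over the members moved by more than its replicate spread with library size scaling, to 1.15 in dry seeds, 0.97 at 8 h 25 °C, 1.21 at 8 h 8 °C and 1.06 at 36 h 8 °C. With groups under 3 counts set to 3 it was 0.99 in dry seeds, 0.997 at 8 h 25 °C and 0.94 at 8 h 8 °C. It was 0.96 at 8 h 8 °C with no filter, and 0.97 at 36 h 8 °C with DESeq2's size factors and with its Wald test (0.970 and 0.973). Leaving out single libraries gave 0.98 to 1.08 at 8 h 8 °C and 0.99 to 1.05 at 36 h 8 °C. The share of counts in JY1605 at 8 h changed from lower to higher at 8 °C, by 0.0433 percentage points, with TMM-scaled totals.

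For single models, the 8 h difference between genotypes of the temperature effect, not called as reported, turned to 0.10 for BnaA02G0009100ZS and 0.19 for BnaA02G0012400ZS with library size scaling, and ran from -0.28 to 0.18 for BnaA02G0012400ZS when single libraries were left out. The 36 h difference of BnaA02G0035100ZS was under the fold threshold with library size scaling (-0.95) and without replicate 1 of either JY1605 36 h group or of JY1621 at 36 h 25 °C (-1.13 to -0.94 over all left-out libraries). The difference of BnaA02G0058500ZS was called only with no filter (1.66). The mean ratio of BnaA02G0041000ZS was 8.23 without replicate 1 of JY1605 dry seeds, that of BnaA02G0005700ZS 6.25 without replicate 2 of JY1605 dry seeds and that of BnaA02G0009500ZS -5.11 without replicate 3 of JY1621 at 8 h 25 °C. The cause of these shifts was not tested.

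No pairing by replicate number was seen in the 12 comparisons checked, each within a genotype. Correlations of deviations between same-numbered libraries ran from -0.0742 to 0.0940, and in 0 of 12 comparisons did every pair exceed 0.1. With a replicate block, 156 and 141 members were called between temperatures at 8 h and 36 h in JY1621, and 159 and 233 in JY1605; for the difference between genotypes the counts were 44 and 154. The block changed no call described above by more than 1.5 times. Depth limits models with few counts: in JY1605, 14 to 53 of the 400 members had fewer than 3 counts per group, by condition.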

Other observations

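The JY1621 libraries kept counts on the first 400 C02 models, at 11.1% to 15.8% of the JY1605 mean of the same condition in summed CPM. On the inner stretch of A02, without BnaA02G0004900ZS, JY1605 libraries kept 0.937% to 7.03% of the JY1621 mean. Relative to their own level, the 3 libraries of a JY1605 group differed more on the inner stretch than on C02. At 8 h 8 °C they held 0.937%, 5.08% and 2.69% on the inner stretch (3.91, 21.2 and 11.2 CPM). On C02 they held 97.8%, 100.3% and 101.9% (6890, 7067 and 7178 CPM), so the spans in percentage points were alike. The JY1621 libraries, low on C02, held 13.2%, 11.1% and 11.7% there at 8 h 8 °C. The part of seed lots, of sequence similarity and of read assignment in these residues was not tested.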
